A study of Mus musculus with 6 samples.

Results

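The chemokine ligand genes were taken as every gene whose symbol in the array annotation begins with Ccl or Cxcl followed by a digit. There were 31 of them among the 16840 gene symbols on the arrays, 18 with a Ccl and 13 with a Cxcl symbol, and 878 probes were listed for them. Occupancy by TEAD4 was measured at their promoters in C2C12, a line of mouse myoblasts that form myotubes once serum is lowered. The cells were infected as populations with a retroviral vector, kept under puromycin, differentiated for 5 days in medium with 2% horse serum and fixed for 10 min in 0.4% formaldehyde. The TEAD4 group (2 samples, called duplicates in the labels) carried Flag-HA-TEAD4, a TEAD4 with a Flag and an HA tag, and the control group (1 sample) carried the empty vector. Chromatin of every sample was precipitated with an anti-Flag antibody (IP) and hybridised against its own input DNA on a pair of Agilent promoter array designs, which gave 6 arrays. Whether the duplicates were separate cultures is not said in the labels, and p-values that rest on their spread may measure technical variation only. The vector's promoter is not named in the labels, and only the tagged protein was precipitated. The arrays measured DNA and not RNA, so neither the myotube state nor the expression of these genes could be checked.

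Chemokines are small secreted proteins that guide leukocytes by binding G protein-coupled receptors. The CC and CXC families are named for the spacing of their first cysteines, and most of their genes lie in tandem clusters. Many are switched on by NF-kB and interferon signalling, and muscle cells can release some of them, Ccl2 among them, under inflammatory stimulation. TEAD4 is a DNA-binding factor of the TEAD family that recruits YAP and TAZ and recognises the MCAT element, a short motif found in many muscle genes.

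The values are log2 of IP over input, centred on the median of each array. Probes lying no more than 500 bp from a given probe were averaged with it into a window, of at least 3 probes. Windows existed for 30 of the 31 chemokine genes (816 windows); Ccl27 had a single probe and none. Of the 30 genes 12 lay on chromosome 11 and 12 on chromosome 5, mostly in clusters, and the others on chromosomes 1, 6, 8 and 13. The number of arrays limits the precision. The control differed from the TEAD4 samples in signal as well as in label: its median IP spot was 1.84 to 2.04 times the local background, against 3.62 to 5.41 times in the TEAD4 samples. Over the 803 chemokine windows left when those shared by neighbouring genes were counted once, the log2 values had an SD of 0.34 (TEAD4 sample 1), 0.50 (TEAD4 sample 2) and 0.87 (control). The scan batch cannot be told apart from the group, because the control and each TEAD4 sample were scanned in separate batches, 3 in all.

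Ccl2 and Cxcl5 were the chemokine genes in which a window reached 2-fold over input in each TEAD4 sample. That is 2 of 30, or 6.67%, against 5.19% of all 16534 genes with a window, so the share of chemokine genes was close to that of all genes. The median top window of a gene, the one with the highest TEAD4 mean, was 0.28 for the chemokine genes and 0.40 for all genes, with medians of 26.5 and 25 windows per gene. Both windows were also 2-fold or more above the control in each TEAD4 sample, which held for 2.55% of all genes.

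Ccl2 encodes the monocyte chemoattractant that acts through the receptor Ccr2. Its top window was centred at -2358 bp, that is upstream of the annotated start, and held 6 probes (chr11:81848984-81849852, coordinates as the array files give them, with the build not given in the sources used here). The value was 1.22 in TEAD4 sample 1, 1.78 in TEAD4 sample 2 and -0.22 in the control, or 2.34-fold, 3.43-fold and 0.861-fold over input. Both TEAD4 samples were high and the control was not, in a window picked for its TEAD4 mean. The control lay below both TEAD4 samples in the top windows of 14 chemokine genes and above both in those of 11. The TEAD4 mean was 1.5 ± 0.39 (SD, n = 2), above input by limma with Benjamini-Hochberg adjustment over all windows (SE 0.16, adjusted p = 9.39e-05). The difference from the control in that window was 1.72 (SE 0.28, limma, adjusted p = 0.000206 over all windows). In the control, 2 of the 6 probes had an IP signal not well above background. The probes around the centre were raised in both TEAD4 samples: the probe at -2358 bp stood at 2.12 and 3.02, and those at -2646 and -2060 bp at 1.32 and 1.95 and at 1.15 and 1.93. The probe at -2229 bp was lower, at 0.97 and 1.33, and the control lay between them there, at 1.26. The probes at -1785 and -3203 bp were back at -0.23 and 0.62 and at -0.63 and -0.04. A second, smaller rise lay at the promoter itself, where the probe at -278 bp read 1.34, 1.13 and -0.24 in TEAD4 sample 1, TEAD4 sample 2 and the control. The window centred on that probe read 0.47, 1.09 and 0.50, so only TEAD4 sample 2 passed 2-fold there and the control matched TEAD4 sample 1. Other ways of correcting, scaling, filtering and averaging the probes were also tried. With 2 of them the distal window of Ccl2 no longer had both TEAD4 samples past 2-fold. These were normexp background correction and windows of 1000 bp on either side, where its TEAD4 mean was 1.02 and 0.90.

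Cxcl5 encodes a neutrophil-attracting CXC chemokine that acts through Cxcr2. Its top window was centred at -4622 bp (chr5:91829455-91830361, 3 probes) and read 1.72 in TEAD4 sample 1, 2.73 in TEAD4 sample 2 and 0.63 in the control, or 3.31-fold, 6.62-fold and 1.54-fold over input. The TEAD4 mean of 2.23 ± 0.71 (SD, n = 2) was the highest among the chemokine genes, with an SE of 0.21 and a limma adjusted p over all windows of 3.92e-05 against input. The neighbouring window at -5014 bp (chr5:91829308-91829906, 3 probes) agreed more closely between the duplicates. It read 2.03 and 2.01 in the TEAD4 samples and -1.19 in the control, a difference of 3.22 on the log2 scale, or 9.29-fold. In either window the control lay below each TEAD4 sample, as it did in the top windows of 14 chemokine genes in all. The window at -5014 bp was also that of the largest difference from the control in Cxcl5. The rise was cut off by the end of the tiled region, as the outermost probe at -5161 bp was among the highest in TEAD4 sample 1 (2.35, 2.09 and -1.20 in TEAD4 sample 1, TEAD4 sample 2 and the control). At -4167 bp the probe read 1.44 in TEAD4 sample 1, 4.23 in TEAD4 sample 2 and 4.26 in the control, so this probe did not separate TEAD4 sample 2 from the control. By gene, Cxcl5 was higher than input (adjusted p = 2.92e-05) and higher than the control (adjusted p = 3.09e-06) by limma with a Simes p over its windows.

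**Figure D1:**
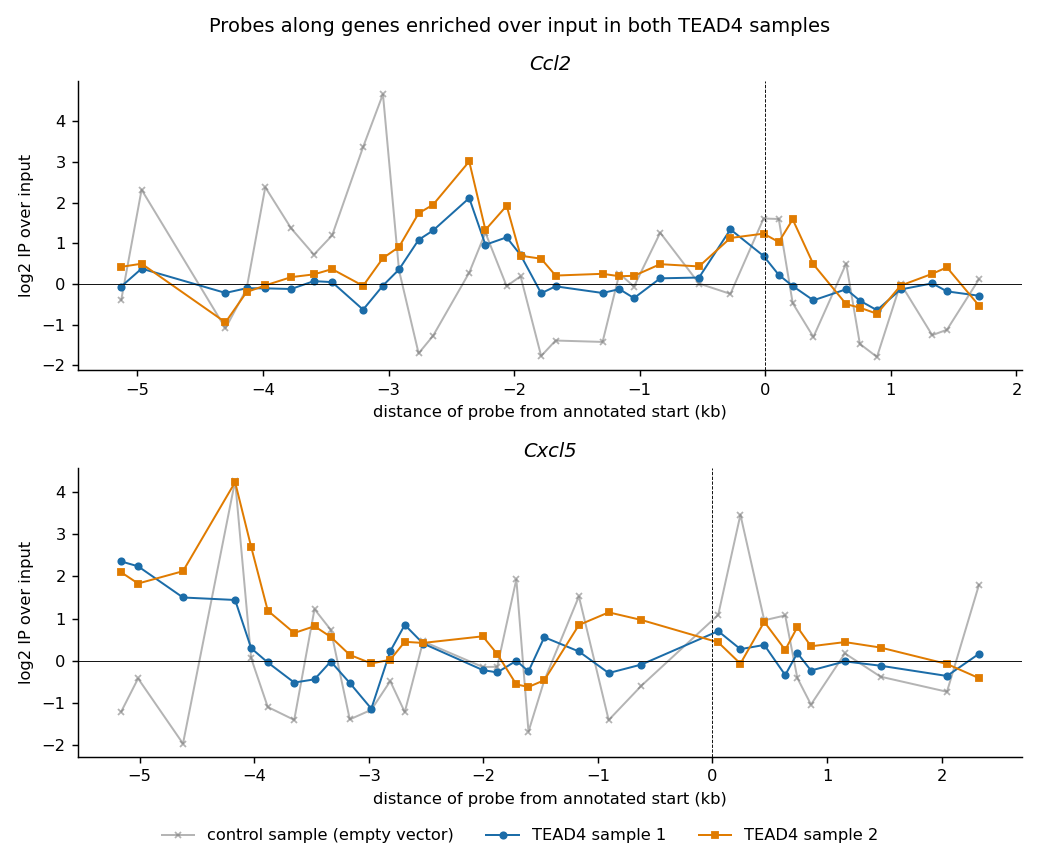
Log2 IP over input of each probe (y axis) against its distance in kb from the annotated start (x axis) for Ccl2 and Cxcl5, in TEAD4 sample 1 (circles), TEAD4 sample 2 (squares) and the control (crosses); the dashed line is the start. In Ccl2 both TEAD4 samples peak at -2358 bp, at 2.12 and 3.02, and in Cxcl5 both are high at the upstream end, at 2.35 and 2.09, while the control alternates between high and low probes.

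Among single probes, 14 of 877 kept chemokine probes (1.60%) reached 2-fold over input in each duplicate, against 1.25% of all 471870 probes. Ccl2 held 5 of them, Cxcl5 4, Ccl9 2, and Cxcl2, Cxcl3 and Cxcl11 1 each. The probe of Cxcl2, at -898 bp, read 1.33 and 1.11 in the TEAD4 samples and was higher still in the control, at 3.43. The probe of Ccl9 at -4738 bp read 1.35, 2.06 and -0.97 and had too few neighbours for a window.

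A further 4 chemokine genes passed 2-fold over input in TEAD4 sample 2 and not in TEAD4 sample 1. TEAD4 sample 2 alone gave 6 of 30 genes, or 20%, against 15.5% of all genes, and TEAD4 sample 1 alone gave 2 of 30, or 6.67%, against 8.05%. The share of the 803 chemokine windows past 2-fold was 5.23% in TEAD4 sample 2 and 0.498% in TEAD4 sample 1, against 2.23% and 1.09% of all windows. The cause of the difference between the duplicates was not tested, and it cannot be told apart from their scan batches.

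Cxcl3, a neutrophil-attracting relative of Cxcl1 and Cxcl2, had its top window downstream of the start, at 1087 bp (chr5:91861910-91862785, 5 probes). It read 0.53 in TEAD4 sample 1, 2.47 in TEAD4 sample 2 and 0.43 in the control. The duplicates differed by more than 2-fold, and TEAD4 sample 1 lay beside the control. The highest probe, at 792 bp, was past 2-fold in both TEAD4 samples, at 1.24 and 3.31, and stood at -0.86 in the control.

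Cxcl9, an interferon-induced ligand of Cxcr3 that attracts T cells, read 0.17, 2.22 and 0.46 in TEAD4 sample 1, TEAD4 sample 2 and the control in its top window at -668 bp (chr5:93403512-93404424, 6 probes). TEAD4 sample 1 was the lowest of the 3 samples. The probe at -849 bp read 4.34 in TEAD4 sample 2, the highest chemokine probe of that sample, against 0.73 in TEAD4 sample 1 and 0.74 in the control. In the control 2 of the 6 probes had an IP signal not well above background.

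Cxcl11, the other interferon-induced Cxcr3 ligand with a raised window, read 0.58, 1.86 and 1.47 at -937 bp (chr5:93438969-93439916, 6 probes). The control lay between the duplicates. The single probe at -1130 bp was past 2-fold in both TEAD4 samples, at 1.34 and 1.93, and stood at -0.29 in the control. Cxcl10, which lies between Cxcl9 and Cxcl11 on chromosome 5 and is induced with them, read 0.11, 0.56 and 1.02 in its top window, so no sample except the control passed 2-fold.

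Ccl9, a macrophage inflammatory protein that binds Ccr1, read 0.74, 2.31 and 0.04 in its top window at -2188 bp (chr11:83396990-83397324, 3 probes). All 3 probes were higher in both TEAD4 samples than the control, and the probe at -2316 bp was past 2-fold in both, at 1.04 and 2.55. The duplicates differed by more than 2-fold in Ccl9, Cxcl3, Cxcl9 and Cxcl11 and by just over 2-fold in Cxcl5, and in no other chemokine gene's top window. The share of all genes with such a difference was not counted.

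**Figure D2:**
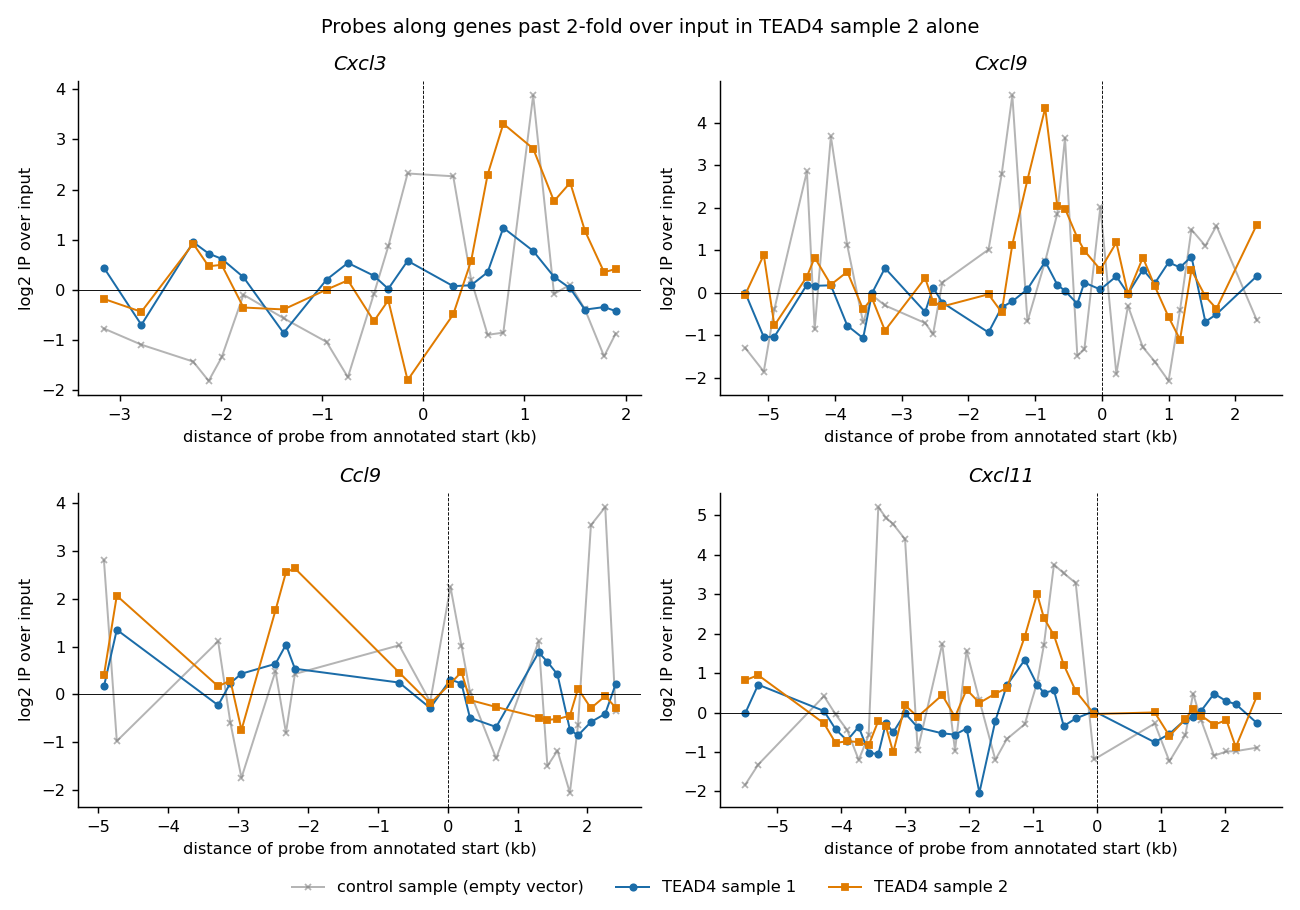
Log2 IP over input of each probe (y axis) against its distance in kb from the annotated start (x axis) for Cxcl3, Cxcl9, Ccl9 and Cxcl11, with symbols for the 3 samples and a dashed line at the start. TEAD4 sample 2 (squares) peaks at 792 bp in Cxcl3 (3.31) and at -849 bp in Cxcl9 (4.34), where TEAD4 sample 1 (circles) stands at 1.24 and 0.73.

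Tested against input over all genes by limma, 5 of the 30 chemokine genes were higher (Ccl2, Ccl9, Cxcl3, Cxcl5 and Cxcl11), or 16.7%, against 23.9% of all genes. The adjusted p of Ccl9 was 0.00258, of Cxcl3 0.0104 and of Cxcl11 0.0123 (limma), and Cxcl9 missed the threshold of 0.05 at 0.0596. Lower than input were 6 of 30 (Ccl3, Ccl8, Ccl25, Cxcl12, Cxcl14 and Cxcl15), or 20%, against 11.8% of all genes. Ccl25 only just passed (adjusted p = 0.0499, limma), and its top window was higher than input (limma, adjusted p = 0.0348 over all windows). With loess, Ccl8 and Ccl25 were called higher than input instead. The calls lower than input were not counted under the other settings. The lowest of these was Cxcl12, the ligand of Cxcr4 that retains stem cells in their niches, at -0.99 and -0.74 in the TEAD4 samples and 0.08 in the control at -1144 bp. No chemokine gene reached 2-fold below input in both TEAD4 samples, as 0.327% of all genes did. With normexp background correction only Cxcl5 remained higher than input, and the share of all genes in that setting was not compared.

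**Figure D3:**
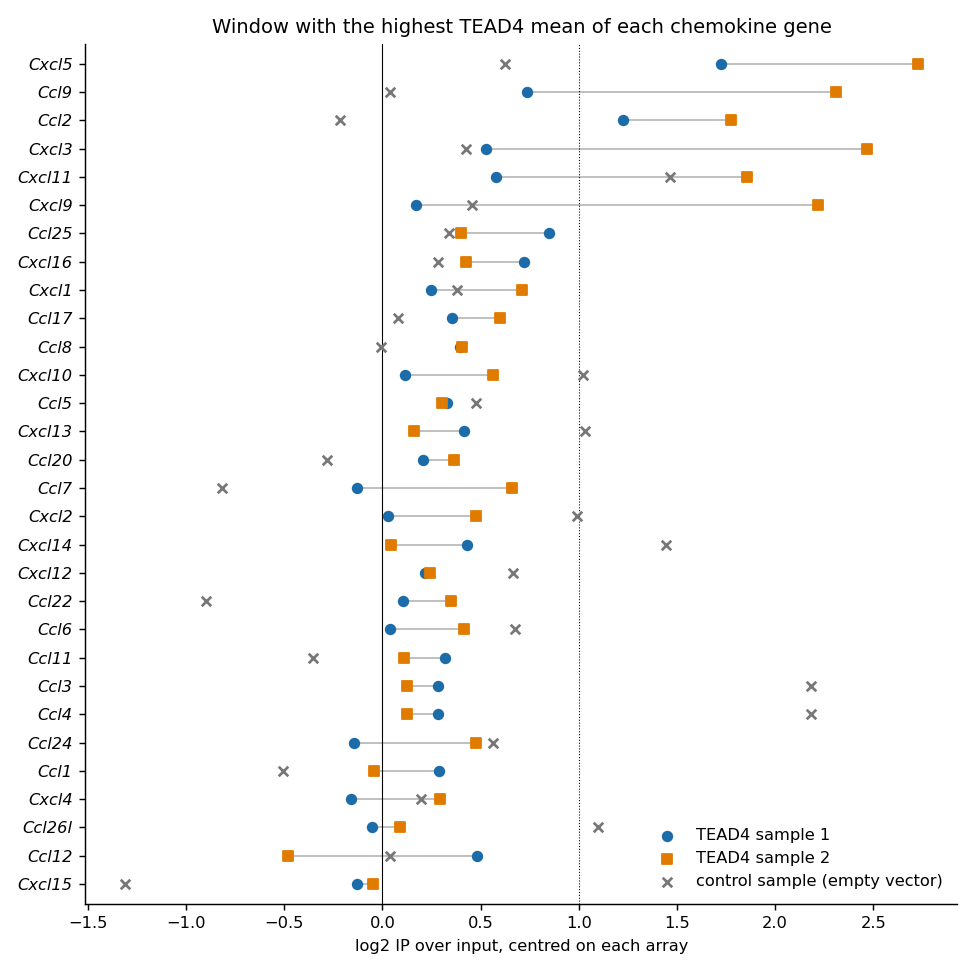
Log2 IP over input (x axis) of the window with the highest TEAD4 mean in each of the 30 chemokine genes (y axis, sorted by that mean), in TEAD4 sample 1 (circles), TEAD4 sample 2 (squares) and the control (crosses); the dotted line is 2-fold. Ccl2 and Cxcl5 have both TEAD4 samples past the line, Ccl9, Cxcl3, Cxcl9 and Cxcl11 have TEAD4 sample 2 past it, and the other 24 genes have neither.

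By role, the top windows outside these 6 genes were low. In the other 24 genes the TEAD4 mean of the top window ran from -0.09 to 0.62 with a median of 0.23, and no value passed 0.85 in TEAD4 sample 1 or 0.71 in TEAD4 sample 2. The monocyte chemoattractant and eotaxin group (Ccl2, Ccl7, Ccl8, Ccl11, Ccl12, Ccl24 and Ccl26l) had a median of 0.22, and Ccl2 alone of its 7 members passed 2-fold in both TEAD4 samples. The macrophage inflammatory protein group (Ccl3, Ccl4, Ccl5, Ccl6 and Ccl9) had a median of 0.23 and 0 of 5 such members. Ccl3 and Ccl4, which are neighbours and share 15 probes, had the same top window, at 0.29 and 0.13 in the TEAD4 samples and 2.18 in the control. The homeostatic and lymphocyte-attracting CC group (Ccl1, Ccl17, Ccl20, Ccl22 and Ccl25, of 6 with Ccl27) had a median of 0.29, and its highest member was Ccl25, which draws T cell precursors to the thymus, at 0.85, 0.40 and 0.34.

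The neutrophil-attracting CXC group (Cxcl1, Cxcl2, Cxcl3, Cxcl5 and Cxcl15) had a median of 0.48 and spanned the family, from -0.09 in Cxcl15 to 2.23 in Cxcl5. The interferon-induced group (Cxcl9, Cxcl10 and Cxcl11) had the highest median, 1.19, which rested on TEAD4 sample 2. The remaining CXC genes (Cxcl12, Cxcl13, Cxcl14 and Cxcl16) had a median of 0.26 and lay between 0.23 and 0.57, and Cxcl4, the gene that RefSeq names Pf4 for platelet factor 4, stood at 0.07. The top window was centred within 1000 bp of the start in 11 genes, farther upstream in 14 and farther downstream in 5. Most of these genes were tiled farther upstream than downstream, so the counts cannot show a preference for a side.

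The control was itself high or low over many probes of these genes, as the probe profiles of Ccl2 and Cxcl5 show. A control window reached 2-fold over input in 27 of the 30 chemokine genes (all but Ccl7, Ccl8 and Ccl12), or 90.0%, against 85.6% of all genes. By limma 3 genes were higher than the control (Ccl7, Cxcl3 and Cxcl5), or 10.0%, against 12.4% of all genes, and 26 were lower, or 86.7%, against 81.0%. The remaining gene was Ccl12, another monocyte chemoattractant (adjusted p = 0.0719, limma). By the rule of size, 14 of 30 genes, or 46.7%, reached 2-fold above the control in each TEAD4 sample within a window, against 29.9% of all genes, and 28, or 93.3%, reached 2-fold below it, against 81.8%. The 14 were Ccl2, Ccl3, Ccl4, Ccl6, Ccl7, Ccl8, Ccl9, Ccl20, Ccl22, Cxcl1, Cxcl3, Cxcl5, Cxcl9 and Cxcl15. Of these, Ccl2 and Cxcl5 alone were also 2-fold over input in such a window. The count of 14 fell to 5 with arrays scaled to a common spread, to 1 with normexp, to 6 with windows of 1000 bp on either side and to 4 with windows within 1000 bp of the start. The share of all genes under these settings was not set beside these counts, so the falls may not be particular to the chemokine genes. The same holds for the limma counts with a common spread or normexp that follow. The test assumed that the control, with 1 sample, varied like the TEAD4 samples, and the calls moved with the scaling: with arrays scaled to a common spread, 1 gene was higher than the control and 0 were lower (2 at an unadjusted limma p under 0.05), and with normexp 1 was higher and 2 were lower. Counting instead every gene with any window past limma's threshold after adjustment over all windows, 8 of 30 (26.7%) were higher than input against 34.8% of all genes, 21 (70.0%) were higher than the control against 63.8%, and 29 (96.7%) were lower than the control against 91.3%, so most genes had windows on either side of the control.

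Ccl7, a monocyte chemoattractant next to Ccl2, was higher than the control at 742 bp by a difference of 1.39 (SE 0.26, limma, adjusted p by gene = 0.00134). It read -0.07 and 0.13 in the TEAD4 samples, close to input, and -1.36 in the control. Cxcl3 was higher at -2273 bp in a window apart from its top one, at 0.63 and 0.38 in the TEAD4 samples and -1.18 in the control (difference 1.69, SE 0.29, limma, adjusted p by gene = 0.000416). For Cxcl5 the window was the one at -5014 bp given above. The calls for Ccl7 and Cxcl3 were lost both with arrays scaled to a common spread and with normexp, and that for Cxcl5 was not. Of these 3 genes, Cxcl5 alone was also past 2-fold over input in that window. Ccl2 was lower than the control by gene (adjusted p = 6.34e-05, limma) because its lowest p came from the window at -3450 bp, where the control stood at 2.27 and the TEAD4 samples at -0.13 and 0.27, although its distal window was higher than the control.

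The largest shortfalls against the control were in Cxcl11, Cxcl4, Cxcl9, Ccl9, Cxcl10 and Cxcl12. At -2999 bp in Cxcl11 the TEAD4 samples read -0.44 and -0.30 and the control 3.68, the highest control window of any chemokine gene, where the probes from -3417 to -2999 bp read 5.21, 4.94, 4.78 and 4.40. In Cxcl4, at 2481 bp, the control stood at 2.88 and the TEAD4 samples at -0.13 and -0.26. In the other 4 genes the TEAD4 mean lay between -0.37 and 0.21 and the control between 2.14 and 2.81. In all 6 windows both TEAD4 samples stood nearer to input than the control did.

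The mean of a gene's probes from 1000 bp before to 500 bp after its annotated start, called here the promoter mean, summarised the region near the start in 30 chemokine genes. By limma 5 of 30 promoter means were above input (Ccl2, Cxcl1, Cxcl5, Cxcl9 and Cxcl11), or 16.7%, against 21.4% of 15512 genes, and 2 were below it (Ccl8 and Cxcl15), or 6.67%, against 4.31%. The median promoter mean of the TEAD4 samples was -0.03 for the chemokine genes and 0.13 for all genes. Over the 30 genes the promoter means of the duplicates had a Pearson correlation of 0.40 and a Spearman correlation of 0.26, against 0.66 and 0.63 over all genes; these are across genes of the same arrays and are a description only.

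Ccl2 had promoter values of 0.30 and 0.91 in the TEAD4 samples and 0.35 in the control (limma against input, adjusted p = 0.00110). Cxcl1, a neutrophil attractant released early in tissue damage, read 0.28, 0.53 and 0.94 (adjusted p = 0.0377, limma). Cxcl5 read 0.20, 0.68 and 0.70 (adjusted p = 0.0348, limma). Both TEAD4 samples were above 0 in these 3 genes, and the control was as high as the lower TEAD4 sample or higher. Cxcl9 read 0.17, 1.54 and 0.40, and Cxcl11 read 0.22, 1.52 and 1.98, with adjusted p = 0.00551 and 0.00411 (limma); in both the duplicates were over 2-fold apart. At the low end, Ccl8, a monocyte chemoattractant, read -0.59 in both TEAD4 samples and 0.18 in the control (adjusted p = 0.000726, limma). Cxcl15, a mouse chemokine known from the lung, read -0.64, -0.29 and -0.61 (adjusted p = 0.0205, limma), and Cxcl4 read -0.40, -0.21 and -0.08 and did not pass (adjusted p = 0.113, limma). With the promoter taken from -500 to 200 bp, Ccl2 stayed above input, and Cxcl1 and Cxcl9 did not (adjusted p = 0.142 and 0.118, limma). Cxcl5, Cxcl11 and Ccl8 had fewer than 3 probes in that span and could not be tested. Cxcl15 was no longer below input (adjusted p = 0.187, limma). Normexp background correction ended all 5 calls above input, that of Ccl2 included (TEAD4 mean 0.34, adjusted p = 0.118, limma). It also ended both calls below input, with Ccl8 at -0.22 (adjusted p = 0.364, limma) and Cxcl15 at -0.23 (adjusted p = 0.211, limma). How many of all genes kept their calls in these settings was not compared.

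The control promoter mean lay above both TEAD4 samples in 20 of the 30 genes, or 66.7%, against 78.3% of all genes. It lay below both in 6, or 20%, against 14.6%, and between them in 4, or 13.3%, against 7.13%. By limma 11 promoter means were below the control, or 36.7%, against 63.9% of all genes, and 1 was above it, or 3.33%, against 5.74%. That gene was Ccl1, a T cell product that binds Ccr8, at -0.11 and -0.12 in the TEAD4 samples and -0.68 in the control (adjusted p = 0.0226, limma), so TEAD4 was no higher than input there. The genes below the control were Ccl6, Ccl8, Ccl9, Ccl22, Ccl24, Ccl25, Cxcl2, Cxcl11, Cxcl12, Cxcl13 and Cxcl16. None of the 11 remained with arrays scaled to a common spread or with normexp (2 at an unadjusted limma p under 0.05 with each), and the call for Ccl1 was lost with both (2 genes with the first and 4 with the second at an unadjusted limma p under 0.05). It was also lost with loess and with promoters from -500 to 200 bp, where other genes passed. The share of all genes under these settings was not compared, so these losses may not be particular to the chemokine genes.

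**Figure D4:**
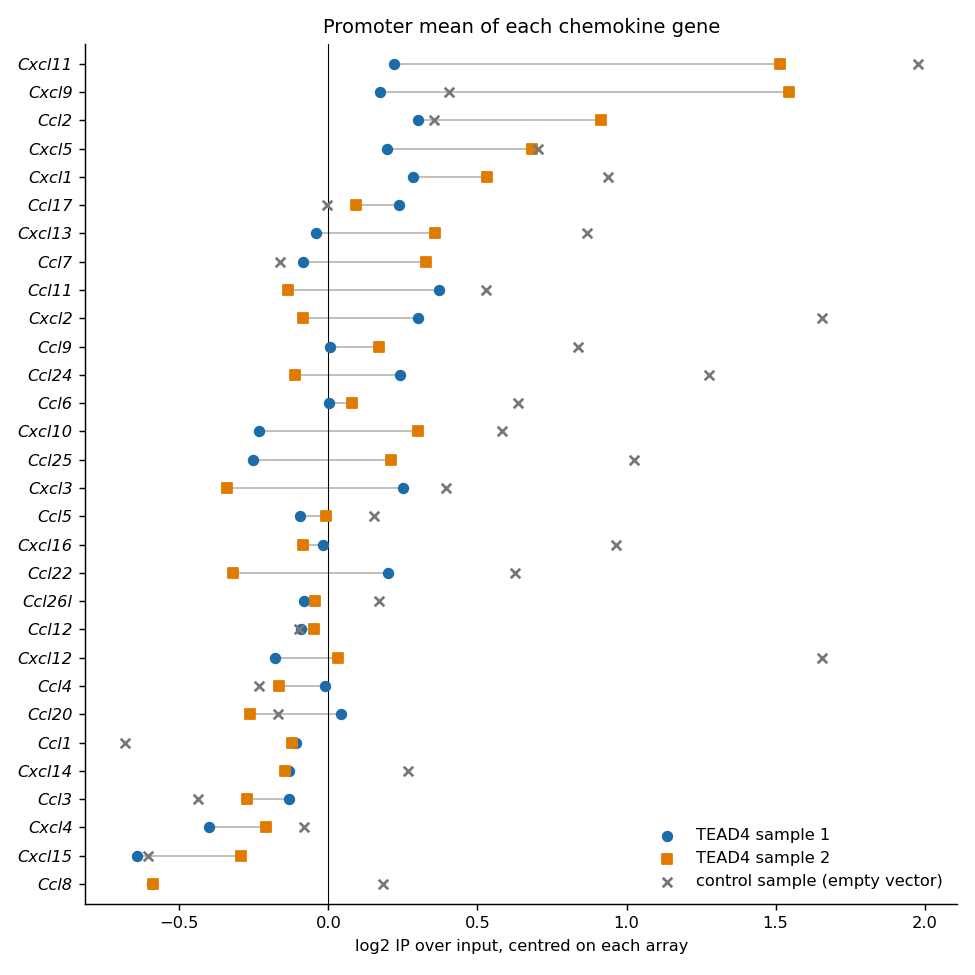
Promoter mean of log2 IP over input (x axis; probes from -1000 to 500 bp of the start) in the 30 chemokine genes (y axis, sorted by the TEAD4 mean), in TEAD4 sample 1 (circles), TEAD4 sample 2 (squares) and the control (crosses). Cxcl11 and Cxcl9 are the highest through TEAD4 sample 2, at 1.52 and 1.54, Ccl8 is the lowest at -0.59 in both TEAD4 samples, and the control lies above both TEAD4 samples in 20 genes.

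The 250 bases before the start are given for 4 genes, with motif matches in capitals, because the array annotation gives each of them a probe at less than that distance from its start: Cxcl1 and Cxcl9, whose promoter means were above input, Cxcl3, whose window lay downstream instead, and Ccl8, the lowest promoter. They are RefSeq sequences of GRCm38.p6, written 5′ to 3′ on the gene's strand. The probes' distances follow the array annotation's own start and build, which were not matched to these sequences, so whether a probe lies on the printed bases was not checked. The motifs searched on both strands were the TEAD element GGAATG, the AP-1 element TGANTCA, the NF-kB element as GGG followed after 5 bases by CC, and the STAT element TTCNNNGAA, and overlapping matches run together.
Cxcl1, chr5:90890995-90891244, plus strand: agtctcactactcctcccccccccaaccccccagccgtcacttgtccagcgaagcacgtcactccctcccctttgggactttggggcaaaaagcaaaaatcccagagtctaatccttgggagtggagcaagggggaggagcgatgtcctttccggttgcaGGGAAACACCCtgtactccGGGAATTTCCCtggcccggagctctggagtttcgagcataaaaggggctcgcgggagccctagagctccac
Cxcl9, chr5:92328080-92328329, minus strand: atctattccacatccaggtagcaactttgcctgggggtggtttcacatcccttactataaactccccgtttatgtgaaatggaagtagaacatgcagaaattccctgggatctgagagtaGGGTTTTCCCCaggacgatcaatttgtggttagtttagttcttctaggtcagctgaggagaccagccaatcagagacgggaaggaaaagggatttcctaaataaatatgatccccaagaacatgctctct
Cxcl3, chr5:90785851-90786100, plus strand: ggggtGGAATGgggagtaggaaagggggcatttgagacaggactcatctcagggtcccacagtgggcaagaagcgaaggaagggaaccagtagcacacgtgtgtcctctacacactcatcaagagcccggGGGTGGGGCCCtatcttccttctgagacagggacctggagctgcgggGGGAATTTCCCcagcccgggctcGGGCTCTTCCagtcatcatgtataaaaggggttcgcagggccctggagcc
Ccl8, chr11:82114935-82115184, plus strand: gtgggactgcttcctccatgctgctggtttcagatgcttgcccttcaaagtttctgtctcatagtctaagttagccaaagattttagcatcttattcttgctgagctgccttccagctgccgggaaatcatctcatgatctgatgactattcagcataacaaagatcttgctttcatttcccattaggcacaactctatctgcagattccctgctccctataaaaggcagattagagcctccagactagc
The capitals in Cxcl1 and Cxcl9 are NF-kB matches. Those in Cxcl3 are a TEAD match near the 5′ end, at -245, and NF-kB matches nearer the start. Ccl8 had none of the 4 motifs in this stretch.

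At these array distances the probe of Cxcl1 at -54 bp read 0.43, 0.39 and 1.38 in TEAD4 sample 1, TEAD4 sample 2 and the control. Its other probe, at -220 bp, read -0.71, 0.70 and 0.75, with the duplicates on either side of input. The probe of Cxcl9 at -22 bp read 0.08, 0.55 and 2.02. The probe of Cxcl3 at -154 bp read 0.58, -1.81 and 2.32, again with the duplicates on either side of input. The probe of Ccl8 at -108 bp read -0.73, -1.39 and 0.89. In none of these 5 probes did a TEAD4 sample pass 2-fold over input. Sequences were found for 21 of the 31 chemokine genes, 24 in all as some genes have more than one start. None was found for the other 10, Ccl2, Cxcl5 and Cxcl11 among them, so their promoters were not searched. The TEAD letters occurred in 4 of these 24 sequences (of Ccl17, Ccl20, Cxcl3 and Cxcl13), or 16.7%, against 12.6% of 32851 promoter sequences of the same length. The NF-kB letters occurred in 13 of 24, or 54.2%, against 45.8%, the AP-1 letters in 3 of 24, or 12.5%, against 6.75%, and the STAT letters in 2 of 24, or 8.33%, against 7.02%. A match of letters describes the sequence and is not a binding site.

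Other genes of the pathway were read in the same way. Of 20 chemokine receptor genes, 1 passed 2-fold over input in both TEAD4 samples: Cxcr7, the receptor that takes up Cxcl12 and Cxcl11, at 1.19, 1.83 and -0.77 in TEAD4 sample 1, TEAD4 sample 2 and the control at 484 bp. Of all genes 5.19% passed this rule, so 1 of 20 was close to that share. The counts of 0 in the short lists below stand beside the same 5.19%. By limma 4 of the 20 were higher than input, or 20%, against 23.9% of all genes, and 3 were lower, or 15%, against 11.8%. The median top window was 0.26. Of 25 genes of the NF-kB pathway and its inflammatory targets, 0 passed 2-fold in both TEAD4 samples, 6 were higher than input by limma, or 24%, and 2 lower, or 8%, against the same shares of all genes, and the median top window was 0.39, against 0.40 for all genes. Of 3 chemokine genes with other symbols (Cx3cl1, Xcl1 and Ppbp), 0 passed 2-fold in both TEAD4 samples and Xcl1 was lower than input by limma.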

How the data were processed

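TEAD4 ChIP-chip of 2 TEAD4 samples and 1 control sample on 2 promoter array designs was analysed. Per the file headers, the deposited intensity values come from Agilent Feature Extraction 9.5.3.1 and are background-subtracted and dye-normalized; the deposited log10 ratios and series matrix values are log10 of IP (Cy5) over input (Cy3), equal to each other (largest difference 0) and not centred, with medians from -0.191 to 0.00276. Per the file headers, extended dynamic range was used for the control arrays only.

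Log2 ratios of these intensities were median-centred by array. After control spots, unplaced probes and probes flagged non-uniform on an array were dropped, 236180 and 235690 probes remained on designs 1 and 2. Windows held at least 3 probes within 500 bp of a probe. Genes are those the array annotation lists for a probe, and a probe between divergent genes counts for each. Of the 31 chemokine symbols, 30 matched RefSeq by accession, and 3 have another symbol there.

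TEAD4 was compared with input and with the control separately by design (R 4.3.3, limma 3.58.1); window p-values were combined per gene by Simes' method, with Benjamini-Hochberg adjustment over all genes and a two-sided threshold of 0.05. A gene's direction was that of its window of lowest p. There was 1 residual degree of freedom, so the test leaned on a variance pooled over windows (13.4 and 13.9 prior degrees of freedom on designs 1 and 2), and neighbouring windows share probes. Promoter means were fitted apart and leaned still more on a variance pooled over promoter means (17.2 and 36.9 prior degrees of freedom on designs 1 and 2). The alternatives were normexp, loess, a common spread of the arrays, a filter on dim probes, other windows, folds and promoter spans, and each TEAD4 sample left out.

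The members and lists were chosen with earlier results of these data known. Named were genes enriched over input in both TEAD4 samples, the 6 highest top windows, up to 10 genes higher and 6 lower than the control, the 5 highest and 3 lowest promoter means, genes whose duplicates differed over 2-fold, and up to 4 enriched genes of the other lists. Probes and sequences named beside them were chosen after their values were seen.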

Additional observations from a re-analysis of the deposited data

How the results depend on the processing

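Without one of the TEAD4 samples, 2 to 6 chemokine genes reached 2-fold over input, and 2 to 6 did so above input and control; 6 was the count from TEAD4 sample 2 alone. Limma could not be run without a TEAD4 sample, as no residual degrees of freedom remain. With normexp background correction the counts were 1 over input (3.33%, against 3.35% of all genes), 1 above the control and 1 above both by size, 1 higher than input, 1 higher and 2 lower than the control by limma, and 0 promoter means above input, 0 above and 0 below the control (3, 4 and 2 at an unadjusted limma p under 0.05). With arrays scaled to a common spread, 3 genes were over input (10%, against 15.3% of all genes). In that setting 5 genes were above the control by size, 1 was higher and 0 were lower by limma, and 0 promoter means were above and 0 below the control (2 at an unadjusted limma p under 0.05 for each of these counts of 0). With loess, 8 genes were higher than input, 10 higher than the control and 4 promoter means above the control. Ccl8 and Ccl25, lower than input in the main run, were among the 8.

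With windows of 1000 bp on either side, 1 gene was over input (3.33%, against 2.21% of all genes), 6 above the control and 1 above both by size, and 7 were higher than the control by limma. With windows within 1000 bp of the start, 0 were over input (against 3.17% of all genes), 4 above the control and 0 above both, and 5 were higher than the control by limma. At 1.5-fold, 4 genes were over input (13.3%, against 20.2% of all genes). At 3-fold, 1 was over input (3.33%, against 0.78%), 2 above the control and 1 above both. With promoters from -500 to 200 bp, 1 promoter mean was above input and 2 above the control, and Cxcl5 and Cxcl11 had too few probes to be tested. With adjustment over all windows, added after seeing the data, 8 genes had a window higher than input and 21 one higher than the control. The filter on dim probes moved no count by over 1.5 times. Counts given here without a share of all genes were not compared with one, so they describe the settings only.

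No paired analysis was possible because the control has 1 sample and no replicate number. The causes were not tested. The low IP signal of the control, 1.84 to 2.04 times background, limits what its ratios can show.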
